A study of Mus musculus with 4 samples.

Results

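The insulin-like growth factor (IGF) genes were followed on 4 arrays of mouse bone marrow mesenchymal stem cells, plastic-adherent stromal cells able to become bone, cartilage or fat cells. The set was the ligand genes Igf1 and Igf2, the receptor genes Igf1r and Igf2r, and the binding protein genes Igfbp2, Igfbp3, Igfbp4, Igfbp5, Igfbp6 and Igfbp7. These are 10 genes of 22180 with a named probe set, and each was read by 1 probe set whose annotation names no other gene. The set was drawn up knowing that Igf2 and Igfbp3 were lower in cells without Snail1, so every difference between genotypes given here for the 10 genes describes them and is not a test.

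The 4 groups were untreated Snail1-WT cells, Snail1-WT cells given TGF-b1 for 2 h, untreated Snail1-KO cells and Snail1-KO cells given TGF-b1 for 2 h. Snail1, the product of Snai1, is a zinc finger transcriptional repressor that binds the E-box CAGGTG and drives the epithelial-mesenchymal transition, and TGF-b1 is a cytokine that signals through SMAD proteins. With 1 array in each group, differences have no replicate check, and no test between groups was run. The mouse strain and age, the Snail1 allele and how it was lost, the dose of TGF-b1 and the number of animals behind the cultures were not given in the sources used here.

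IGF1 and IGF2 are small secreted proteins that resemble insulin and promote growth and survival through the tyrosine kinase IGF1R. IGF2R, also the mannose 6-phosphate receptor, carries IGF2 into lysosomes and thereby removes it. IGF binding proteins hold the ligands in the fluid around cells, where they prolong their life or keep them from the receptor, and proteases free the ligands by cutting them. In bone marrow stroma and bone, IGFs made by the cells themselves act together with IGFs from the circulation.

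Values are log2 values, on which a difference of 1 is 2-fold, and the medians of the 4 arrays over 41345 probe sets lay between 4.58 and 4.63. Snai1, the targeted gene, measured 6.69 and 7.63 in Snail1-WT cells without and with TGF-b1 and 5.09 and 5.34 in Snail1-KO cells, in the direction of the labels. The place of its probes within the gene was not given in the sources used here. They may lie outside the lost part. As a yardstick of error, a noise SD for differences between arrays was taken for each gene from the 500 genes nearest to it in level, by how far the responses of the 2 genotypes to TGF-b1 disagreed. It lay between 0.080 for Igfbp7 and 0.23 for Igfbp2. A shift that both arrays of a genotype share, such as one between cultures, cancels out of it. Genes were kept for counts over all genes when their mean was at least 4.51, which left 13308 genes. Of the 10 IGF genes 9 were kept, and Igfbp5 was not. Levels of the 10 genes are compared between arrays for each gene, never between genes, since probe sets differ in how strongly they bind. The sums of marker lists, given later, do add values of different genes and so lean on the brightest.

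Of the ligands, Igf2 was low in both arrays of Snail1-KO cells. It measured 7.09 in untreated and 7.07 in TGF-b1-treated Snail1-WT cells, and 5.18 and 5.30 in Snail1-KO cells. Both Snail1-WT arrays lay above both Snail1-KO arrays, and the arrays of a genotype lay close together. Snail1-KO minus Snail1-WT was -1.91 without and -1.77 with TGF-b1, a level 3.75-fold and 3.40-fold lower, beside a noise SD of 0.18. Of the 13308 kept genes, Igf2 was the 8th lowest by this difference without and the 10th lowest with TGF-b1.

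Igf1, the ligand that growth hormone induces in liver and many other tissues, had the same order of genotypes with a smaller gap. Without and with TGF-b1 it measured 6.69 and 6.75 in Snail1-WT cells and 5.80 and 6.07 in Snail1-KO cells. The genotypes did not overlap. Snail1-KO minus Snail1-WT was -0.89 without and -0.67 with TGF-b1, which is 1.85-fold and 1.59-fold lower beside a noise SD of 0.17. Both ligand genes thus stood lower in Snail1-KO cells with and without TGF-b1, and Igf1 did not reach 2-fold in either.

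The receptor genes differed far less between genotypes. Igf1r measured 8.06 and 8.33 in Snail1-WT cells and 7.83 and 8.21 in Snail1-KO cells. Here the genotypes overlapped, and the treated array was the higher one in each. The genotype difference was -0.22 without and -0.11 with TGF-b1, beside a noise SD of 0.11. Igf2r measured 8.66 and 8.72 in Snail1-WT cells and 8.84 and 9.04 in Snail1-KO cells. Both Snail1-KO arrays lay above both Snail1-WT arrays, by 0.18 without and 0.32 with TGF-b1 beside a noise SD of 0.081, or at most 1.25-fold.

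Among the binding proteins the widest gap was that of Igfbp3, the main carrier of IGFs in blood. It measured 9.02 and 8.85 in Snail1-WT cells and 6.79 and 6.93 in Snail1-KO cells. The gap between the genotypes was far wider than that between the arrays of a genotype. The difference was -2.23 without and -1.92 with TGF-b1, 4.70-fold and 3.78-fold lower beside a noise SD of 0.11. Igfbp3 was the 2nd lowest of the kept genes without TGF-b1 and the 5th lowest with it.

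Igfbp6, which binds IGF2 in preference to IGF1, went the other way. It measured 9.32 and 8.90 in Snail1-WT cells and 10.22 and 10.06 in Snail1-KO cells. Both Snail1-KO arrays were the higher ones. The difference was 0.91 without TGF-b1, just under 2-fold at 1.87-fold, and 1.16 with it, just over at 2.23-fold, beside a noise SD of 0.085. Among the kept genes it had the 149th and the 83rd highest difference.

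**Figure D1:**
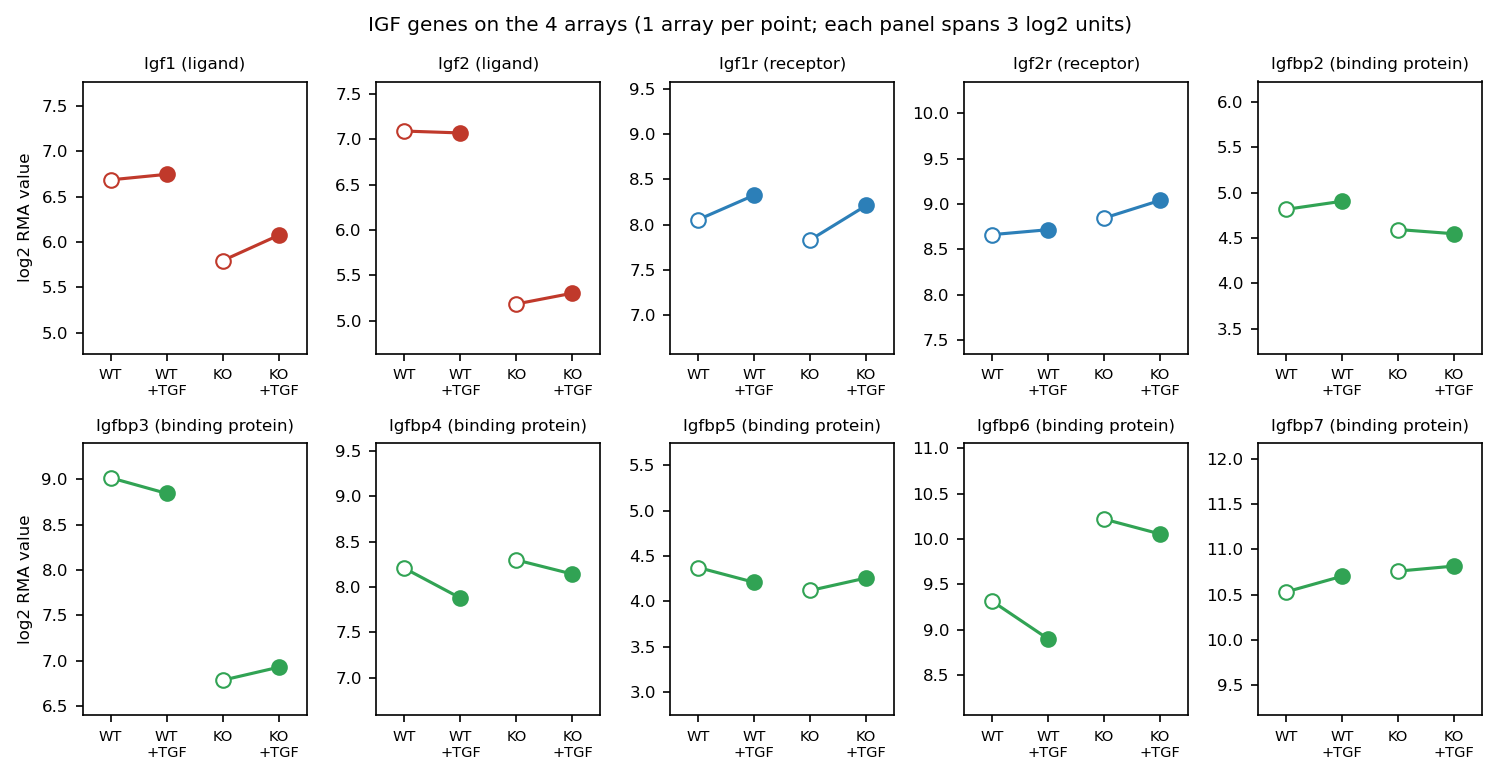
Log2 RMA value (vertical axis) of each IGF gene on the 4 arrays (horizontal axis), open circles untreated and filled circles with TGF-b1, 1 array per point and no error bars because no group has a replicate. Igf1, Igf2 and Igfbp3 stand lower and Igfbp6 higher in Snail1-KO cells, while Igf1r is set more by treatment. Each panel spans 3 log2 units.

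The other binding protein genes moved little. Igfbp4, a secreted inhibitor of IGF action that the protease pappalysin-1 cleaves, measured 8.21 and 7.88 in Snail1-WT cells and 8.30 and 8.14 in Snail1-KO cells, with overlap between genotypes and differences of 0.09 and 0.26. Igfbp7, which binds IGFs only weakly, measured 10.53 and 10.70 against 10.76 and 10.82, higher in Snail1-KO cells by 0.23 and 0.11. Igfbp2 lay near the lowest mean kept, at 4.82 and 4.91 against 4.60 and 4.55, with differences of -0.22 and -0.36. These gaps of Igfbp2 compare with a noise SD of 0.23.

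Igfbp5, a binding protein of bone matrix, measured 4.37 and 4.21 in Snail1-WT cells and 4.12 and 4.26 in Snail1-KO cells. All 4 arrays read it under 4.51, and its genotype differences of -0.25 and 0.05 had opposite signs. The level of Igfbp5 is therefore not resolved by its probe set on these arrays.

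Counted over the 10 genes, 2 (Igf2 and Igfbp3) were at least 2-fold lower in untreated Snail1-KO cells and 0 were higher by as much. Of all kept genes 0.744% were lower and 0.827% higher by that much. With TGF-b1 the same 2 were lower and 1 (Igfbp6) was higher, beside 0.631% and 1.07% of kept genes. At 1.5-fold, Igf1 joined the lower genes in both pairs and Igfbp6 was the 1 higher gene in both, beside 3.13% lower and 4.01% higher of the kept genes without TGF-b1 and 3% and 5.14% with it. Since the set was chosen on this contrast, nothing is read from these counts. The median of the 10 genes was -0.22 without and -0.03 with TGF-b1, against -0.00034 and -0.0024 over the kept genes. In 9 of 10 the sign was the same in both pairs, as it was in 72.4% of kept genes.

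**Figure D2:**
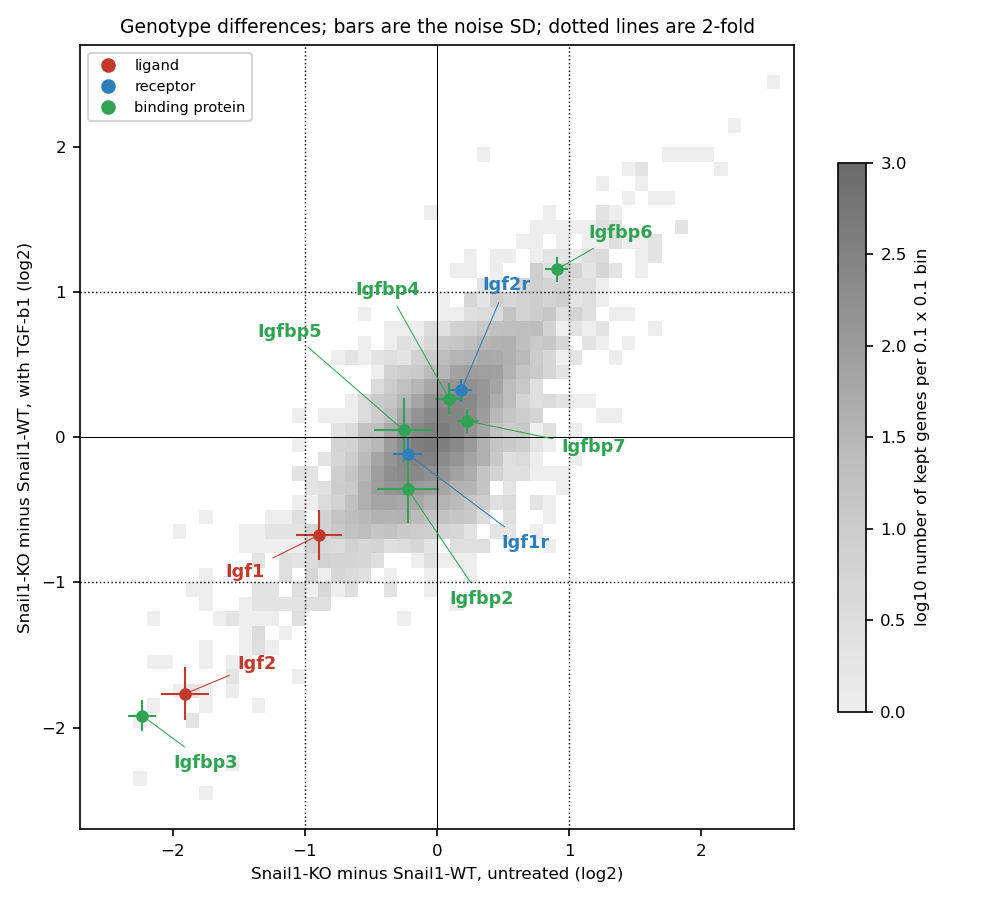
Snail1-KO minus Snail1-WT without TGF-b1 (horizontal axis, log2) against the same with TGF-b1 (vertical axis, log2) for the IGF genes, over the density of the kept genes within the plotted range in grey. Bars are the noise SD and dotted lines mark 2-fold. Igfbp3 and Igf2 lie at the lower left edge of the kept genes, with Igf1 between 1.5-fold and 2-fold lower on both axes. Igfbp6 lies toward the upper right but not at the edge, with the 149th and the 83rd highest difference.

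The promoters of the 10 genes were read for the Snail1 E-box, CAGGTG or its reverse complement CACCTG. The windows were the 250 bases before each RefSeq start in build GRCm38.p6, all on sequence before the transcript. All 10 genes were matched, with 14 starts. Igfbp3 held 1 match, 172 bases before its start, and Igf2r held 1, 65 bases before its start. None of the 4 Igf2 windows held one. The share was 2 of 14 windows, beside 17.2% of 32851 windows of all genes, so these letters were about as common here as elsewhere. The windows with a match are shown in the direction of transcription, with the E-box in capitals, for Igfbp3 at chr11:7213924-7214173 (minus strand) and for Igf2r at chr17:12769707-12769956 (minus strand).
Igfbp3: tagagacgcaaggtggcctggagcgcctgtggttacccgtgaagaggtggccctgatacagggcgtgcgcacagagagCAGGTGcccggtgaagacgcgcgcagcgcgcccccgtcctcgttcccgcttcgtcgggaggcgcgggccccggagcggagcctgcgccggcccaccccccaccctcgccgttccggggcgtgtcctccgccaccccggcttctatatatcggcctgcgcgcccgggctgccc
Igf2r: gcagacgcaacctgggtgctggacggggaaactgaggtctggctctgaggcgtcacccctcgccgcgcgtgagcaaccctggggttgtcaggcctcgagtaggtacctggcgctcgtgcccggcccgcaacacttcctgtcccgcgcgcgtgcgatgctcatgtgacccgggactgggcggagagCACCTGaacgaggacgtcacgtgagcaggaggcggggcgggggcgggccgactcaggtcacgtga
The gene with the widest gap and one that was slightly higher in Snail1-KO cells thus both carry the letters. A match is a description of sequence, and no binding was measured.

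The core of the SMAD binding element, CAGAC or its reverse complement GTCTG, was searched for in the same windows. It occurred in 7 of 14 windows and in 5 of the 10 genes (Igf2, Igf1r, Igf2r, Igfbp2 and Igfbp6), beside 42.2% of all windows and 45.8% of all genes. The window before the most downstream Igf2 start, chr7:142657497-142657746 (minus strand), is shown as an example, with its 2 matches in capitals, 227 and 17 bases before the start. Another Igf2 window, with matches 93 and 84 bases before its start, and the Igf2r window, at 249 and 214 bases, also held 2. Igf2 answered TGF-b1 by less than its noise SD.
Igf2: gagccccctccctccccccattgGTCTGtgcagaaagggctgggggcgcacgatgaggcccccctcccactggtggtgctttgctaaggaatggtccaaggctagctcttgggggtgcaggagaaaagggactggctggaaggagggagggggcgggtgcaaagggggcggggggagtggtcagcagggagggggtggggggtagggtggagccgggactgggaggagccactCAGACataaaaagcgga

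The genes around Igf2 and Igfbp3 were read to see whether their neighbours shared the gap. Igf2 is an imprinted gene of chromosome 7, and its neighbours were taken in RefSeq order as the 5 measured genes on either side. H19 was not among them, because its probe set also names Mir675. Their differences ran from -0.39 to 0.43 without TGF-b1, with a median of -0.25, and from -0.61 to 0.40 with it, with a median of -0.28. None of the 10 was 1.5-fold apart in both pairs. The share of all genes that far apart in both pairs was not taken. Nctc1, Igf2os, Ins2 and Ascl2 were not kept, and genes so low in Snail1-WT cells could hardly show a fall. Igfbp3 lies on chromosome 11 beside Igfbp1, a binding protein gene best known in liver. Its neighbours ran from -0.82 to 0.57 without and from -0.72 to 0.15 with TGF-b1, with medians of -0.01 and -0.13. Adcy1, an adenylate cyclase gene, was the 1 of 10 that was over 1.5-fold lower in both pairs, at -0.82 and -0.72. Igfbp1 measured between 4.02 and 4.52 on the 4 arrays and was not kept. Nor were its fellow neighbours Gm11981, Ccdc201, Pkd1l1, Sun3 and Gm11992, so most genes around Igfbp3 could hardly show a fall.

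The microRNA gene Mir483 lies inside the Igf2 gene on the same strand in the RefSeq annotation and has a probe set of its own. It was picked after its values were seen. The mature sequences of its 2 arms are shown with the seed, bases 2 to 8, in capitals.
miR-483-3p: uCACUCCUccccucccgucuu
miR-483-5p: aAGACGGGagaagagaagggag
Without and with TGF-b1, Mir483 measured 6.95 and 6.88 in Snail1-WT cells and 6.75 and 6.29 in Snail1-KO cells. Its genotype difference was -0.21 and -0.60 beside a noise SD of 0.16, against -1.91 and -1.77 for Igf2. The host gene and the probe set inside it did not show the same gap. Which RNA the Mir483 probe set reads, precursor or mature, was not given in the sources used here. The antisense transcript Igf2os, also picked after its values were seen, lay between 4.06 and 4.53, was not kept, and differed by -0.39 and -0.36.

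**Figure D3:**
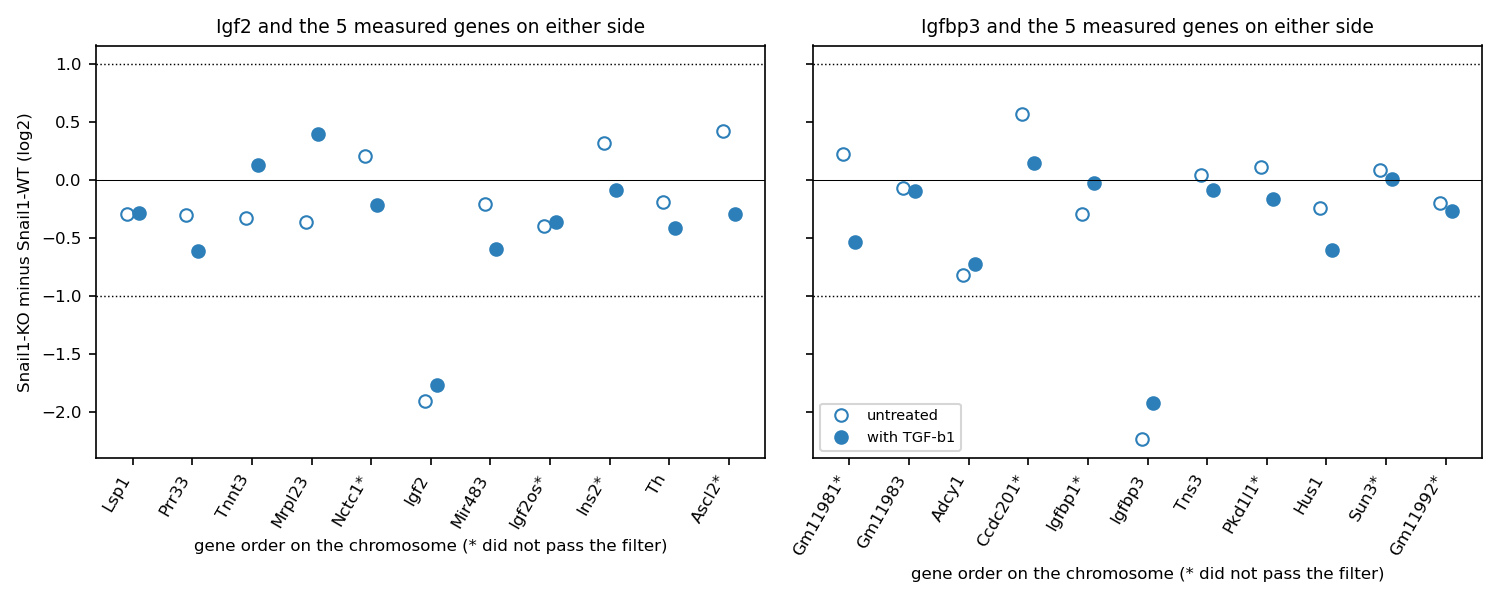
Snail1-KO minus Snail1-WT (vertical axis, log2) for Igf2 (left) and Igfbp3 (right) and the 5 measured genes on either side in chromosomal order, open circles without and filled circles with TGF-b1, 1 difference between 2 arrays per point. Dotted lines mark 2-fold, and the IGF gene alone lies beyond it in each panel.

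The kept genes whose 4 values, after removal of each gene's own mean, lay nearest to those of Igf2 were Alpl, Mmp3 and Cep126, at root mean square distances of 0.052, 0.064 and 0.072. Alpl encodes the alkaline phosphatase of bone-forming cells and Mmp3 a secreted metalloproteinase. Nearest to Igfbp3 were Pdgfd, a growth factor gene, at 0.14, then Cep126 at 0.14 and Mmp3 at 0.15. Pdgfd differed by -2.12 without and -1.55 with TGF-b1. Mmp3, Cep126 and Pdgfd all lie on chromosome 9, Alpl on chromosome 4. With 4 arrays, likeness means mainly that the genes share the size of the genotype gap.

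TGF-b1 for 2 h left the 10 genes within 1.5-fold in both genotypes. This contrast was not used to draw up the set. None was at least 2-fold higher or lower in Snail1-WT cells, where 0.714% of kept genes were higher and 0.271% lower, and none in Snail1-KO cells, where 0.999% and 0.308% were. At 1.5-fold the counts were also 0, beside 2.48% higher and 1.89% lower of the kept genes in Snail1-WT cells and 3.31% and 1.83% in Snail1-KO cells. With shares this small, 0 of 10 is close to the background. The cells had answered the cytokine, since Smad7, which encodes an inhibitory SMAD, was higher by 1.51 and 1.80.

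Igf1r had the largest response upward, by 0.27 with Snail1 present and by 0.38 without it, or 1.21-fold and 1.30-fold. These are 2.44 and 3.44 times its noise SD. Among the binding proteins, Igfbp6 differed after TGF-b1 by -0.42 and -0.16, and Igfbp4 by -0.33 and -0.16. For Igfbp6 this was 4.88 times its noise SD in Snail1-WT cells and 1.93 times in Snail1-KO cells, and for Igfbp4 it was 3.06 and 1.45 times. These 3 genes were singled out for the size of their responses. They moved in the same direction in both genotypes, whose responses share no array, as did 67.5% of kept genes.

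Neither ligand reached 1.5-fold in a response. The response of Igf2 was -0.02 in Snail1-WT cells and 0.12 without Snail1, both within its noise SD of 0.18, and its first sign turned when arrays were centred or fitted by loess (0.03 and 0.0038). Igf1 was higher by 0.06 and 0.28, or 0.35 and 1.60 times its noise SD. Igf2r was higher by 0.05 and 0.20, or 0.67 and 2.40 times, and Igfbp7 by 0.17 and 0.06, or 2.15 and 0.69 times. Igfbp3 differed by -0.17 and 0.14, Igfbp2 by 0.09 and -0.05, and Igfbp5 by -0.16 and 0.14. In all, 6 of the 10 genes had the same sign in both responses, against 67.5% of kept genes.

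**Figure D4:**
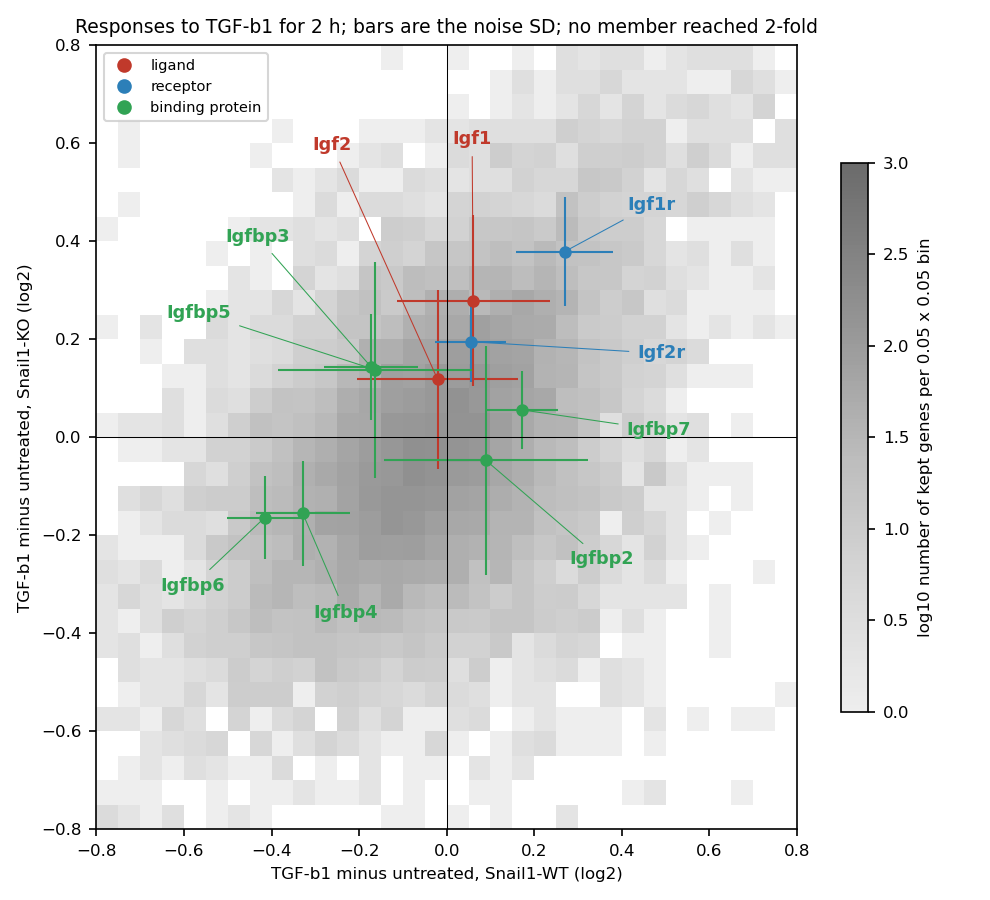
TGF-b1 minus untreated in Snail1-WT cells (horizontal axis, log2) against the same in Snail1-KO cells (vertical axis, log2) for the IGF genes, over the density of the kept genes within the plotted range in grey. Bars are the noise SD. Igf1r lies at the upper right at 0.27 and 0.38, and Igfbp4 and Igfbp6 at the lower left.

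Subtracting the Snail1-WT from the Snail1-KO response left differences between -0.14 for Igfbp2 and 0.32 for Igfbp3, and none of the 10 reached 1.5-fold. Of kept genes 1.61% were at least 1.5-fold higher and 1.97% lower by this measure. The difference of Igfbp3, 0.32, and that of Igfbp6, 0.25, were 2.07 and 2.09 times the noise SD of such a difference, which is wider than that of a single response. For the other 8 genes the ratio was at most 1.22 in size.

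Other genes of the IGF pathway were then described from lists, with the 10 genes left out and every measured gene counted, whatever its level. Further IGF and insulin family genes held 14 measured genes, of which 6 were kept, and none was 1.5-fold apart in either genotype pair or either response. Without the filter, 3.48% of all 22180 genes were 1.5-fold higher and 2.65% lower between the untreated genotypes and 4.06% and 2.9% between the treated ones (Snail1-KO against Snail1-WT), and the responses had 2.3% higher and 1.86% lower in Snail1-WT and 2.97% and 2.26% in Snail1-KO cells. Of the 14, the insulin receptor gene Insr differed between genotypes by -0.01 and 0.17. The list median was -0.01 in both genotype pairs.

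Proteases that cut IGF binding proteins, with their inhibitors, had 26 measured genes. In Snail1-KO cells 3 were at least 2-fold lower and 0 higher without TGF-b1, as many as with it, beside 0.528% and 0.446% lower and 0.6% and 0.726% higher of all 22180 genes. The 3 were Adam12, whose product cleaves IGFBP3 and IGFBP5, at -1.83 and -1.90, Mmp3 at -1.85 and -1.75, and Stc1, encoding a stanniocalcin that inhibits pappalysins, at -1.57 and -1.55. Mmp3 measured 3.96 and 3.93 in Snail1-KO cells, under the lowest mean kept, and Stc1 measured 4.38 in treated Snail1-KO cells, so the sizes of these differences are uncertain. The list medians were -0.01 and -0.12. Pappa, the pappalysin-1 gene, differed by -0.05 and 0.25 and the lysosomal protease gene Ctsd by 0.67 and 0.72.

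In the responses to TGF-b1, first in Snail1-WT and then in Snail1-KO cells, Stc1 differed by -1.48 and -1.47, and Adamts1, a protease gene of the matrix, by -1.40 and -1.75. Pappa was higher by 0.45 and 0.76 and Adam12 by 0.74 and 0.67. Timp3, which inhibits metalloproteinases, was higher by 0.75 and 1.07. For C1s1, a complement protease gene, the responses were 0.10 and -1.16. Of this list, 2 of 26 were at least 2-fold lower and 0 higher in Snail1-WT cells, and 3 lower and 1 higher in Snail1-KO cells, beside 0.216% lower and 0.478% higher, and 0.234% and 0.681%, of all genes.

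Genes that relay the receptor signal had 41 measured members, with medians of -0.17 and -0.07 between genotypes. Grb10, an imprinted gene for an adaptor that restrains the IGF1 and insulin receptors, was the 1 member at least 2-fold lower in both pairs, beside 0.528% and 0.446% of all genes. It measured 7.02 and 6.94 in Snail1-WT cells and 5.98 and 5.89 in Snail1-KO cells, a difference of -1.04 and -1.05. Its relative Grb14 went the other way, at 0.67 and 0.73. The receptor substrate gene Irs1 differed by -0.34 without TGF-b1 and by -0.0020 with it, and Irs2 by -0.31 and -0.27. Foxo1, a transcription factor gene that IGF signalling holds in check, was higher after TGF-b1 by 1.46 (Snail1-WT) and 1.55 (Snail1-KO), the 1 member of the list at least 2-fold apart in each response, beside 0.478% and 0.681% higher and 0.216% and 0.234% lower of all genes.

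Genes that FOXO factors switch on and IGF signalling holds down had 21 measured members. None was 2-fold apart between genotypes. At 1.5-fold, 2 were higher and 0 lower in untreated Snail1-KO cells, beside 3.48% and 2.65% of all genes. The 2 were Pdk4, a brake on glucose oxidation, at 0.72 and Fbxo32, a ubiquitin ligase gene of muscle wasting, at 0.79. With TGF-b1, 5 were higher and 0 lower, beside 4.06% and 2.9% of all genes. These were Pdk4 at 0.77, the cell death gene Bcl2l11 at 0.77, Sesn1 at 0.75, the cyclin kinase inhibitor gene Cdkn1b at 0.68 and Map1lc3b at 0.60, the last 2 named after their values were seen. The list medians were -0.01 and 0.25. In the response of Snail1-WT cells 0 of the 21 were 1.5-fold higher and 4 lower, beside 2.3% and 1.86% of all genes, and the list median was -0.15. In that of Snail1-KO cells 1 was higher and 4 lower, beside 2.97% and 2.26%, with a median of -0.23. Klf15 differed by -1.62 and -1.15 and Txnip, encoding an inhibitor of thioredoxin, by -0.94 and -1.09. Other members were higher, such as the sestrin gene Sesn3 by 0.33 and 0.57 and Trib1, the 1 member over 1.5-fold higher, by 0.17 and 0.64, both named after their values were seen. The genotype and response comparisons share arrays, so they are not independent.

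**Figure D5:**
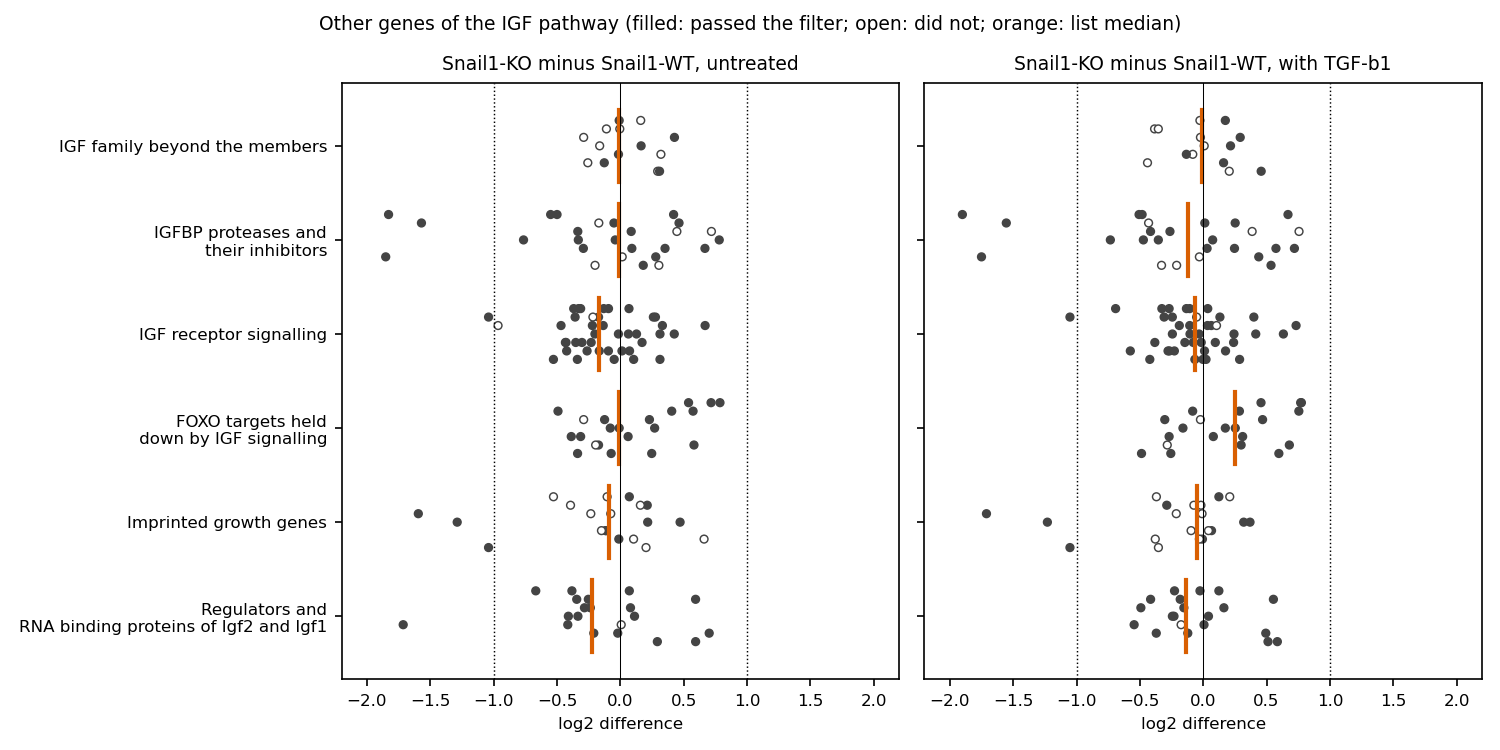
Snail1-KO minus Snail1-WT (horizontal axis, log2), untreated (left) and with TGF-b1 (right), for every measured gene of 6 lists of the IGF pathway, 1 gene per point, filled where it passed the filter on low values. Orange bars are list medians and dotted lines mark 2-fold. The proteases and the imprinted genes each have 3 members beyond 2-fold lower in both panels.

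Igf2 belongs to a group of imprinted genes that act on growth. Of 20 further measured members, only 9 were kept, and 3 were at least 2-fold lower in both pairs, with 0 higher, beside 0.528% and 0.446% lower and 0.6% and 0.726% higher of all genes. Beside Grb10 these were Dlk1, encoding a membrane protein that restrains fat cell formation, at -1.29 and -1.23, and Dcn, the gene of the matrix proteoglycan decorin, at -1.59 and -1.71. Dlk1 measured 7.57 and 7.54 in Snail1-WT cells and 6.28 and 6.31 in Snail1-KO cells. The list medians were -0.09 and -0.05, so the 3 low members did not stand for the list as a whole.

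Regulators and RNA binding proteins of Igf2 and Igf1 had 20 measured members, with medians of -0.22 and -0.14. At 1.5-fold, 3 were higher and 2 lower in untreated Snail1-KO cells, beside 3.48% and 2.65% of all genes. With TGF-b1, 1 was higher and 0 lower, beside 4.06% and 2.9%. The RNA binding protein gene Igf2bp3 was higher in Snail1-KO cells by 0.59 and 0.55. The growth hormone receptor gene Ghr was higher by 0.59 and 0.51 and Esr1 by 0.70 and 0.49, while Igf2 and Igf1 were lower. Hmga2, a chromatin protein gene, differed by -0.67 and -0.23. Egr1, an early response transcription factor gene, was more than 2-fold lower without TGF-b1, at -1.71, and differed by -0.55 with it.

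Markers of cell types were set beside these results. The mesenchymal markers Pdgfra, Pdgfrb and Cxcl12 measured 11.10, 10.96 and 11.20 in untreated Snail1-WT cells, and 12 of 14 measured markers were kept, though Lepr lay at 2.93. Endothelial, skeletal muscle, epithelial, hepatocyte and proliferation markers had no member 1.5-fold apart between genotypes in either pair. Of 12 haematopoietic and macrophage markers 5 were kept, and the defining genes Ptprc, Itgam and Adgre1 lay between 3.15 and 3.78 on all arrays. Summed on a linear scale, however, this list measured 1724 and 1498 in Snail1-WT and 2426 and 2188 in Snail1-KO cells, of which Cd34, also found on stromal cells, was the brightest member and differed by 0.54 and 0.64. The monocyte gene Cd14 differed by 0.42 and 0.59 and the lysozyme gene Lyz2, which was not kept, by 0.54 and 0.71. At 1.5-fold, 0 members were higher without and 3 (Cd34, Cd14 and Lyz2) with TGF-b1, beside 3.48% and 4.06% of all genes. In each pair 0 were lower by as much, though Csf1r differed by -0.12 and -0.55. The list medians were 0.29 and -0.13. Adipocyte markers summed to 335 and 308 against 242 and 275, with Lpl at -0.96 and -0.77, and osteoblast markers to 172 and 184 against 127 and 120, with Alpl at -1.78 and -1.82. Of the 6 measured osteoblast markers Alpl alone was kept, Phex was higher by 1.19 and 1.09, and the list medians were 0.19 and -0.11. Mesenchymal markers summed to 10596 and 10768 against 9149 and 9505, with medians of -0.25 and -0.10 and Mcam at -0.53 and -0.72, the 1 member 1.5-fold apart in a genotype pair (with TGF-b1). Skeletal muscle markers summed to 256 and 247 against 227 and 235, and proliferation markers to 5671 and 5700 against 5473 and 5692. Smooth muscle markers summed to 4502 and 4914 against 4184 and 4728. Of 7 measured, 2 were at least 1.5-fold lower and 0 higher in each pair. The 2 were Cnn1 at -0.90 and -0.76 and Tagln at -0.70 and -0.62. Of all genes 2.65% and 2.9% were lower and 3.48% and 4.06% higher by as much. The sums of the mesenchymal, adipocyte, osteoblast, smooth muscle, skeletal muscle and proliferation markers were lower in Snail1-KO cells in each pair. That of proliferation was barely so with TGF-b1. Igf1, Igf2 and Igfbp3 were lower too. The haematopoietic sum was higher, as Igfbp6 was, but Cd34 made up most of it. Such sums lean on their brightest members, such as Lpl and Alpl. List medians were -0.21 and 0.01 for adipocyte and 0.08 and 0.03 for smooth muscle markers. They were -0.16 and -0.09 for skeletal muscle and -0.04 and 0.01 for proliferation markers. The sums thus do not show that whole lists moved. The part of these markers in the results was not tested. In bulk RNA, fewer cells of a type and less RNA per cell cannot be told apart.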

How the data were processed

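RNA of 4 samples, 1 per group, was biotin-labelled with an Affymetrix WT PLUS kit, per the labels' protocols. Per the submitters' processing notes, the authors ran RMA in R 3.1.1, which gave the deposited log2 values. RMA equalises the distributions of the arrays, so a shift shared by most genes would be lost. The genome build and annotation were not given in the sources used here. Depth does not apply to arrays, and their number limits the precision. No array was left out, and groups came from the sample source names.

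Of 41345 probe sets, 23521 had 1 gene symbol and 1814 had several in the platform annotation. Probe sets with several symbols or none were left out of the genes. The probe set with the highest mean stood for each gene. The 60% of genes with the highest mean were kept. Differences of log2 values were taken, at 2-fold and, as an alternative, 1.5-fold. The noise SD was the median absolute deviation of the difference of responses, scaled to an SD and divided by the square root of 2, and was checked on simulated data. For Igfbp5 and other genes that were not kept it comes from the dimmest kept genes. Other alternatives were no filter, 40% of genes kept, median centring, cyclic loess (limma 3.58.1 in R 4.3.3) and the mean of all probe sets. Promoters and microRNAs are RefSeq's in GRCm38.p6, and all 10 genes matched by Entrez identifier. Work used Python 3.11.15, numpy 2.4.6, pandas 2.3.3 and matplotlib 3.10.9.

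The genes and lists were chosen with earlier results of these data known. Named genes were drawn from the 10 genes and the 3 nearest profiles of Igf2 and Igfbp3. From each pathway list up to 6 members at least 1.5-fold apart in any comparison were eligible, and from each marker list the 3 brightest. Not every eligible gene is named in the text. The other genes named with values were chosen after their values were seen.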

Additional observations from a re-analysis of the deposited data

Results flagged for a closer look

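Of the 10 genes, 4 had responses to TGF-b1 of opposite sign in Snail1-WT and Snail1-KO cells, each from 1 array against 1, and the difference was not tested. Snail1-KO minus Snail1-WT response was 0.14 for Igf2, -0.14 for Igfbp2, 0.32 for Igfbp3 and 0.30 for Igfbp5. All single responses of Igf2, Igfbp2 and Igfbp5 lay within their noise SD, while those of Igfbp3, at -0.17 and 0.14, were 1.60 and 1.33 times it.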

How the results depend on the processing

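No paired analysis was possible because each group has 1 array and the labels give no replicate numbers. With median centring and with cyclic loess, the counts of the 10 genes at least 2-fold apart were unchanged in all 5 comparisons. They stayed at 2 without and 3 with TGF-b1 between genotypes and 0 in the responses and their difference. The other settings, no filter, 40% of genes kept and a gene's probe sets averaged, could not change these counts. All 10 genes were counted whatever the filter, and each has 1 probe set. At 1.5-fold the count between genotypes without TGF-b1 was 4 in place of 2. Each difference of the 10 genes moved by less than its noise SD under median centring and cyclic loess, by at most 0.067. Signs near 0 turned for the response of Igf2 in Snail1-WT cells and, with median centring, for the genotype difference of Igfbp5 with TGF-b1 (0.05 to -0.00023). With 40% of genes kept, Igfbp2 was no longer among the kept genes, as Igfbp5 was not. Each IGF gene has 1 probe set, so no second probe set bears on any of them, and low signal limits Igfbp2 and Igfbp5.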
